A study of Mus musculus with 12 samples.

Results

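The neurofilament and peripherin genes encode the intermediate filament proteins that fill neuronal axons. The 5 genes are Nefl, Nefm and Nefh, which encode the light, medium and heavy neurofilament subunits, Ina, which encodes alpha-internexin, and Prph, which encodes peripherin. They were taken by gene symbol from count tables of 27179 genes, and each symbol matched 1 gene. The low-count filter kept 4 of the 5 in every comparison, all but Nefh.

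RNA of mouse dorsal cortex (strain C57BL/6 for all samples) was sequenced in 12 libraries, with 3 wild-type (WT) and 3 Ash2l conditional knockout (cKO) libraries at each of embryonic days E14.5 and E16.5. In the cKO, D6-Cre removes Ash2l, a core subunit of the COMPASS complexes that methylate histone H3 at lysine 4. Which exons are deleted, and whether WT embryos carried Cre or a floxed allele, is not given in the sources used here. Since the D6 promoter is active in the dorsal telencephalon, interneurons that arrive from the ventral telencephalon, vessels, blood and meninges keep the gene. Within an age, each WT library has a cKO library with the same title number, and the letters A, B and C follow the size of that number. The labels leave its meaning unstated. P-values therefore measure only how much these libraries vary, and some of that variation may be technical.

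Neurofilaments are built from heteropolymers. Nefl forms the core, Nefm and Nefh add long phosphorylated side arms, and alpha-internexin is the first of these proteins to appear in many newly born central neurons. Peripherin belongs to the same family and is best known from sensory, autonomic and motor neurons. Nefh accumulates late, as axons mature. In bulk tissue, fewer neurons and less transcript per neuron cannot be told apart.

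The 5 genes lie on 4 chromosomes (mm10). Nefl (chromosome 14, 68083884 to 68087745, plus strand, 4 exons) and Nefm (chromosome 14, 68119545 to 68125004, minus strand, 3 exons) are neighbours, 31799 bases apart. Nefh lies on chromosome 11 (4938754 to 4948064, minus strand, 4 exons), Ina on chromosome 19 (47014698 to 47024358, plus strand, 3 exons) and Prph on chromosome 15 (99055174 to 99058978, plus strand, 8 exons). In Nefl, Nefm and Ina the second exon is 125 bases long, against 200 in Nefh and 61 in Prph. Counts cover exons of the whole gene, but the models counted are shorter than the GENCODE ones. For Nefl 40.6% of the GENCODE exon bases were not counted, for Ina 29.9%, for Nefm 7.86%, and for Nefh and Prph 0%.

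The family shares a conserved end of the central rod, which is shown to identify the 5 members and to show how far their transcripts differ. Each line gives 30 coding bases (GENCODE transcripts), with capitals for the 20 bases that are the same in all 5 genes.
Nefl: gCtTACAGaAAaCTctTgGAaGGcGAaGAG
Nefm: gCgTACAGgAAaCTccTaGAgGGgGAaGAG
Nefh: gCtTACAGaAAgCTccTgGAaGGcGAaGAG
Ina: gCtTACAGgAAgCTccTgGAaGGtGAaGAG
Prph: aCcTACAGgAAgCTacTgGAaGGgGAgGAG
The coding sequences were also compared over their full length. Between pairs of members, identity over aligned coding bases ran from 63.1% to 67.0%. The longest identical run of any pair was 35 bases, between Nefm and Prph. Coding length ran from 1506 bases in Ina to 3273 in Nefh.

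Promoter sequence was at hand for 2 members, Ina and Prph, whose mean levels at E16.5 lay on opposite sides of WT in cKO. The 250 bases before the start are given from RefSeq (GRCm38.p6), with CG dinucleotides in capitals. The first is chr19:47014431-47014680 and the second chr15:99054924-99055173, both on the plus strand. The Prph window ends next to the counted gene start, while the Ina window ends some bases short of the counted start at 47014698.
Ina: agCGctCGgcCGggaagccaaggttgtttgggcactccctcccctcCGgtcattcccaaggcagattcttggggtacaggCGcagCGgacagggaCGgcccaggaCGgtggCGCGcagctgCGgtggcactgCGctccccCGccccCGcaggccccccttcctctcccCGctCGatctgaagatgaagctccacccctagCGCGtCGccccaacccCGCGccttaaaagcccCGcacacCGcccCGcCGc
Prph: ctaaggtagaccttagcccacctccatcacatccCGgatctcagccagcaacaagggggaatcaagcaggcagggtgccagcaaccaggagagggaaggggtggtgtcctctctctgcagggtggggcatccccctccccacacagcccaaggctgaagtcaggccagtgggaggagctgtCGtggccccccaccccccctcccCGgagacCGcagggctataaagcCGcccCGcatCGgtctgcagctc
The Ina window held 25 CG dinucleotides, more than 89.3% of 32851 promoter windows of this length, whose median is 6. The Prph window held 7, more than 53.7% of them. TATAAA, searched on both strands, occurred in the Prph window 31 bases before the start and not in the Ina window, and 12.4% of all windows held it. Such matches describe the letters of the window and not a site in use. Nefl, Nefm and Nefh are named only.

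Library totals ran from 14318147 to 24719047 counted fragments. Genes that define dorsal cortex were found in every library: Neurod6 at 325 to 638 CPM (a gene's share of the counted fragments, scaled to a common library total), Tbr1 at 235 to 443 and Emx1 at 22.4 to 65.2. Single libraries stood apart in markers of other cells. At E14.5, WT B had the highest sum of 14 GABAergic and ventral telencephalon markers (369 CPM, against 44.9 to 160 in the other 5), and cKO A the highest sum of 10 meningeal markers (355.3 CPM, against 14.8 to 49.9). The sum of 8 choroid plexus markers was 483 CPM in E14.5 WT A, against 28.6 to 60.8 in the other 5 libraries of that age. It was 626 CPM in E16.5 WT C, against 8.39 to 32.8. At E14.5 Xist was high in all 3 cKO and low in all 3 WT libraries, so sex and genotype cannot be told apart there, while at E16.5 WT A and cKO C had high Xist. The targeted gene, Ash2l, was 118 to 143 CPM in WT and 46.9 to 59.9 in cKO at E14.5, and 129 to 135 against 54.3 to 60.6 at E16.5. No Ash2l level went against a label. Its log2 fold change of cKO over WT was -1.28 at E14.5 (edgeR adjusted p = 0.0124) and -1.20 at E16.5 (adjusted p = 8.19e-04). Leaving out WT C or cKO C ended the E14.5 call of Ash2l (edgeR adjusted p of 0.0885 and 0.108).

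Ina was by far the most abundant member at each age and in each genotype. Levels between genes were compared as FPKM, CPM divided by the counted exon length in kilobases. Ina averaged 62.0 ± 14.4 FPKM in E14.5 WT and 28.1 ± 9.01 in E14.5 cKO (SD, n = 3 each). It averaged 89.2 ± 8.08 FPKM in E16.5 WT and 46.4 ± 3.95 in E16.5 cKO (SD, n = 3 each). Nefl came next, with means of 4.86, 1.61, 11.3 and 3.28 FPKM in the same order of groups, and then Nefm, with 3.49, 1.05, 7.15 and 2.14. The ranges of Nefl and Nefm over libraries overlapped in every group. Within a library, Nefl was above Nefm in all but E14.5 WT A, where the ratio was 0.822. Prph followed with 0.968, 0.432, 0.228 and 0.503 FPKM, and Nefh was lowest with 0.0234, 0.0312, 0.0961 and 0.0979. Apart from Nefl and Nefm, the ranges of neighbours in this order did not overlap within any group. Ina made up 79.5% to 93.5% of the family's summed FPKM over the 12 libraries.

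**Figure D1:**
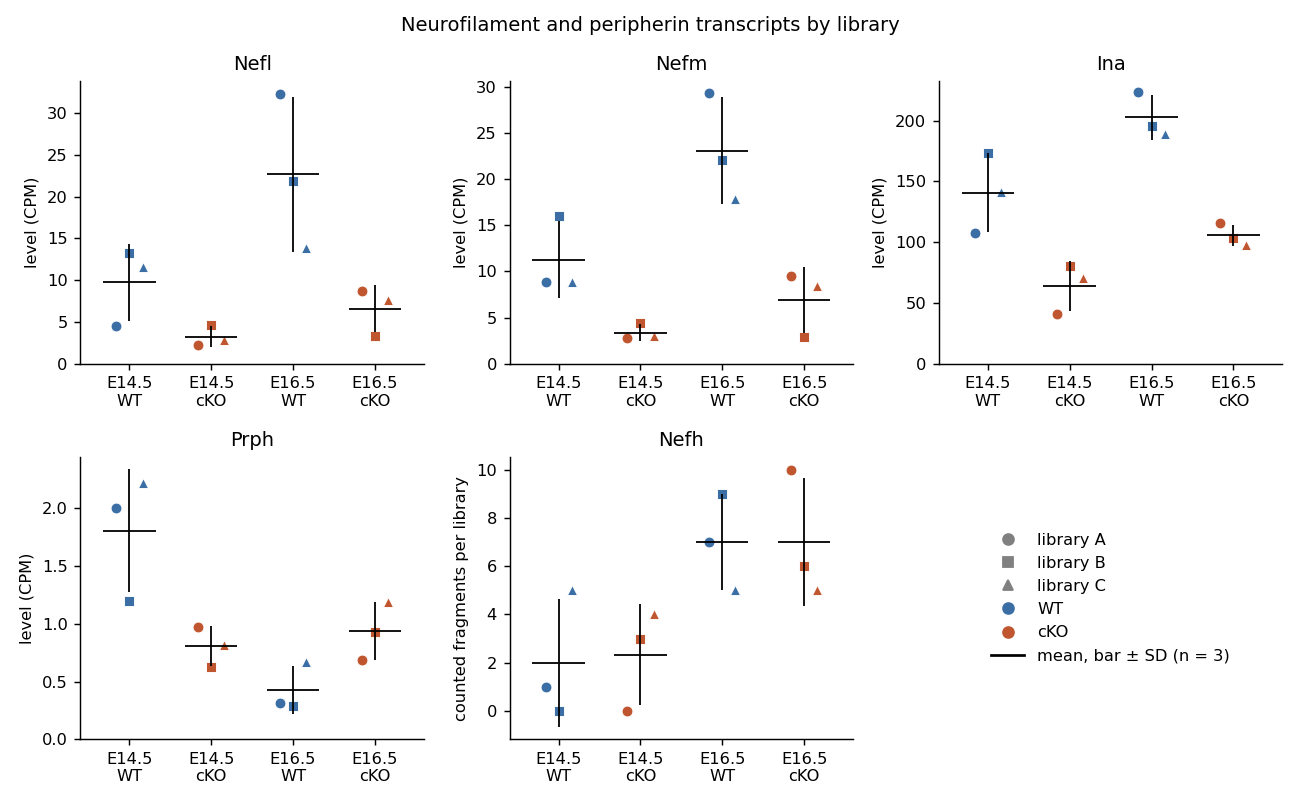
Level of each gene in the 12 libraries, as CPM for Nefl, Nefm, Ina and Prph and as counted fragments for Nefh, by age and genotype, with the mean and SD of 3 libraries. For Nefm and Ina all 3 cKO libraries lie below all 3 WT libraries at both ages, whereas Prph lies lower in cKO at E14.5 and higher in cKO at E16.5, and Nefh does not go beyond 10 fragments.

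At E14.5, the earlier age, cKO was compared with WT for each member. Nefm, Nefl, Ina and Prph all had lower mean levels in cKO, and of these 4 tested genes Nefm passed the test. The call rule, an edgeR adjusted p under 0.05 over all 14788 genes tested, gave 1.66% of all genes as lower and 0.352% as higher. The median log2 fold change of the 4 genes was -1.37, beside 0.03 for all genes tested.

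Nefm, the medium subunit, was at 8.90, 16.1 and 8.91 CPM in WT A, B and C and at 2.74, 4.39 and 3.0 CPM in cKO A, B and C. The groups did not overlap, and every cKO library stood at less than the lowest WT level. The mean fell from 11.3 ± 4.13 to 3.38 ± 0.887 CPM (SD, n = 3 each), a log2 fold change of -1.74 (SE 0.309, edgeR adjusted p = 0.0407). The call was lost with any 1 of the 6 libraries left out (edgeR adjusted p from 0.0562 without cKO A to 0.198 without cKO C), over log2 fold changes from -1.96 to -1.40.

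Nefl, the light subunit that starts filament assembly, was at 4.55, 13.2 and 11.5 CPM in WT A, B and C. In cKO A, B and C it was at 2.21, 4.60 and 2.87 CPM. WT A, at 4.55 CPM, lay just under cKO B, so the groups overlapped. The change of Nefl, -1.60 on the log2 scale (SE 0.439), did not pass the test (edgeR adjusted p = 0.108). Without WT A, the library with the high choroid plexus sum, Nefl was at -1.95 (edgeR adjusted p = 0.0601).

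Ina was at 108, 173 and 141 CPM in WT A, B and C and at 40.9, 80.2 and 70.6 CPM in cKO A, B and C. All 3 cKO libraries were below all 3 WT libraries. Ina stood at -1.13 on the log2 scale (SE 0.264), just short of the threshold (edgeR adjusted p = 0.0766).

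Prph was at 2.0, 1.20 and 2.22 CPM in WT A, B and C and at 0.969, 0.627 and 0.821 CPM in cKO A, B and C. These levels rest on 19 to 48 fragments per WT library and 9 to 20 per cKO library. The cKO libraries were again all lower, with a log2 fold change of -1.14 that did not pass (SE 0.349, edgeR adjusted p = 0.136). Nefm, Ina and Prph were thus below WT in every cKO library, as were 14.8% of all genes tested. Nefh had 1, 0 and 5 fragments in WT and 0, 3 and 4 in cKO. A count of 0 allows a level of up to 0.186 CPM in the library WT B and of up to 0.166 CPM in cKO A, for counting error only, so a difference was not detectable at this depth. DESeq2, run on the same E14.5 counts, called Nefl (adjusted p = 0.00617), Nefm (adjusted p = 1.69e-05) and Ina (adjusted p = 9.20e-04) as lower, beside 6.23% of the genes it tested.

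Libraries at the extremes of the family also stood apart in other genes. The choroid plexus list had a median log2 fold change of -1.71 at E14.5 and -1.99 at E16.5, with 0 of 7 tested genes called at either age (edgeR), and at each age 1 WT library held its high sum. WT B had the highest Nefl, Nefm and Ina, together with the highest summed level of 20 pan-neuronal markers (7127 CPM, against 4759 and 5083 in the other WT libraries) and of ventral markers. cKO A had the lowest Nefl, Nefm and Ina, together with the lowest pan-neuronal sum (2476 CPM, against 4166 and 4408 in the other cKO libraries) and the highest meningeal sum. Their part in the result was not tested. With WT B and cKO A both left out, Nefm was at -1.30 (edgeR adjusted p = 0.0258), Ina at -0.73 (adjusted p = 0.0319) and Nefl at -1.14 (adjusted p = 0.238). With 12 libraries and sex in 1 fit, Nefl was at -2.24 (edgeR adjusted p = 0.132), Nefm at -2.26 (adjusted p = 0.0864) and Ina at -1.17 (adjusted p = 0.127), and 0 members passed. At E14.5 that fit takes the sex term from the E16.5 libraries, since sex and genotype coincide.

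At E16.5 the same comparison gave lower Nefl, Nefm and Ina in cKO and a higher mean of Prph. Of the 4 tested genes 3 passed the test as lower and 0 as higher. Of all 14865 genes tested, 9.88% passed as lower and 5.98% as higher. The median log2 fold change of the 4 genes was -1.35, beside 0.02 for all genes tested.

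Nefl was at 32.3, 21.9 and 13.9 CPM in WT A, B and C and at 8.72, 3.37 and 7.66 CPM in cKO A, B and C. The cKO libraries were all lower, as for 18.3% of all genes tested, and cKO B was lowest. The log2 fold change of Nefl was -1.80 (SE 0.392, edgeR adjusted p = 0.0207), and 0.457% of tested genes had a lower value.

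Nefm was at 29.3, 22.1 and 17.9 CPM in WT and at 9.47, 2.85 and 8.45 CPM in cKO. WT A was highest and cKO B lowest, as for Nefl, and the groups did not overlap. Nefm had a log2 fold change of -1.75 (SE 0.386, edgeR adjusted p = 0.0213). The Nefl call was lost without WT A (edgeR adjusted p = 0.0620), WT B (adjusted p = 0.0691) or cKO B (adjusted p = 0.0582). The Nefm call was lost without WT A (edgeR adjusted p = 0.0679) or WT B (adjusted p = 0.0713). Without the filter on low counts Nefl was at an edgeR adjusted p of 0.0661 and Nefm at 0.0671.

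Ina was at 223, 196 and 189 CPM in WT and at 115, 103 and 97.9 CPM in cKO. The libraries of each genotype lay close together and the groups were far apart. The mean fell from 203 ± 18.4 to 105 ± 8.97 CPM (SD, n = 3 each), a log2 fold change of -0.95 (SE 0.0902, edgeR adjusted p = 0.00179). The Ina call at E16.5 held in all 13 alternatives that were run, with log2 fold changes from -1.02 to -0.88.

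Prph went the other way. It was at 0.319, 0.290 and 0.667 CPM in WT A, B and C, from 6, 5 and 13 fragments. In cKO A, B and C it was at 0.691, 0.933 and 1.19 CPM, from 13, 18 and 18 fragments. All 3 cKO libraries were higher, as for 19.2% of all genes tested, although cKO A lay just above WT C. The log2 fold change was 1.09 (SE 0.437), with a 95% interval from 0.09 to 2.10, and it did not pass the test (edgeR adjusted p = 0.129). Without WT C, the library with the high choroid plexus sum at this age, Prph was at 1.59 (edgeR adjusted p = 0.0804), and Nefl, Nefm and Ina were still called. The part of choroid plexus RNA in these levels was not tested.

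Nefh had 7, 9 and 5 fragments in E16.5 WT and 10, 6 and 5 in E16.5 cKO. The genotypes overlapped fully, with means of 0.384 ± 0.134 and 0.391 ± 0.122 CPM (SD, n = 3 each). Nefh was too low to be tested.

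At E16.5 the shared numbers were taken as a possible pairing, since same-numbered libraries deviated weakly together from their group means (r of 0.11 to 0.28). The E16.5 values given above come from the fit without this pairing. With the number as a block, Nefl, Nefm and Ina were again called lower (edgeR adjusted p = 0.0276, 0.0300 and 2.11e-06) and Prph again did not pass (adjusted p = 0.0683). In that fit 17.9% of all genes passed as lower. In the authors' deposited table, with the sign turned to cKO over WT, the E16.5 log2 values were -1.26 for Nefl, -1.23 for Nefm, -0.92 for Ina and 0.49 for Prph (adjusted p = 0.238). The authors' deposited table for E14.5 gave -1.01 for Nefl (adjusted p = 0.00647), -1.31 for Nefm (adjusted p = 1.65e-05), -0.94 for Ina (adjusted p = 9.22e-04) and -0.69 for Prph (adjusted p = 0.116). Of the genes with an adjusted p in the authors' deposited table, 6.22% were lower in cKO with an adjusted p under 0.05 at E14.5 and 10.8% at E16.5.

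**Figure D2:**
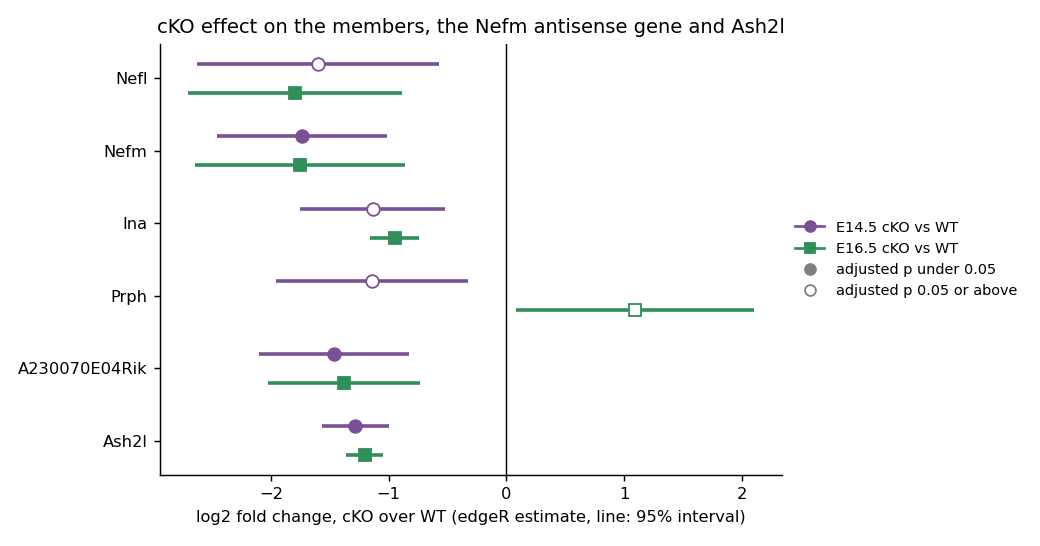
Log2 fold change of cKO over WT with its 95% interval at E14.5 and E16.5, from the edgeR fits, for 4 of the genes, the antisense neighbour of Nefm and Ash2l, with filled symbols for an adjusted p under 0.05. Nefl, Nefm and Ina have nearly the same estimate at both ages, while Prph stands at -1.14 at E14.5 and 1.09 at E16.5.

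Whether the cKO effect differed between the ages was tested as an interaction over all 12 libraries. It passed for 0 of the 4 members and for 0 of 15338 genes (edgeR). At an unadjusted p under 0.05 the interaction held 318 genes, or 2.07%. That is below the share of 0.05 that no true effect would give. The fit may thus be conservative, and its 0 genes do not show equal effects at the 2 ages. DESeq2 also gave 0 genes, and edgeR with the replicate number as a block gave 1, which was no member. For Nefm the difference, E16.5 minus E14.5, was 0.01, with a 95% interval from -1.02 to 1.04. For Ina it was 0.20 (interval -0.47 to 0.87) and for Nefl -0.17 (interval -1.60 to 1.26). These intervals leave room for a difference of 1 log2 unit in Nefl and Nefm. For Prph the difference was 2.26 (SE 0.555, interval 1.05 to 3.47). Its unadjusted p of 0.00158 was the 7th smallest of 15338, and the edgeR adjusted p was 1.0. Genes whose cKO libraries were all lower at E14.5 and all higher at E16.5 numbered 11 of 14514, or 0.0758%, Prph among them.

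Prph stands low in this tissue, and 15 markers of peripheral sensory and motor neurons, the cells it is best known from, were measured beside it. Mnx1 was at 0 in all 12 libraries and 10 of the 15 averaged under 0.1 CPM, among them Chat and Slc18a3. The low-count filter kept 2 of the 15 at each age, so their sum rests on few genes. At E16.5 the sum was 4.88 to 7.03 CPM in WT and 4.56 to 6.48 CPM in cKO, with overlap. At E14.5 it was 5.55 to 18.1 CPM in WT and 4.52 to 6.40 CPM in cKO, with the highest sum in WT B. That library had the lowest Prph of the WT libraries and also the highest ventral marker sum (369 CPM). The part of peripheral or ventral neurons in the Prph levels was not tested.

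Between the ages Nefl, Nefm and Ina had higher means at E16.5 in both genotypes, none past the edgeR test, and Prph was lower at E16.5 in WT. Embryonic age and the handling of each age cannot be told apart in these comparisons. Sex is also unevenly spread over the ages. Xist was high in every E14.5 cKO library and in no E14.5 WT library, but at E16.5 in WT A and cKO C. With sex as a term far fewer genes were called in both genotypes, as given in the last section. In WT 1 of 4 tested members passed, Prph, as lower, beside 1.39% of all 15338 genes lower and 0.763% higher. WT Prph went from 1.81 ± 0.534 to 0.425 ± 0.210 CPM (SD, n = 3 each), a log2 fold change of -2.07 (SE 0.396, edgeR adjusted p = 0.0320). All 3 E16.5 WT libraries were below all 3 E14.5 WT libraries, as for 18.3% of all genes tested. This call was lost without E14.5 WT A (edgeR adjusted p = 0.127) or C (adjusted p = 0.167), without E16.5 WT A (adjusted p = 0.171) or B (adjusted p = 0.139), and with sex as a term (adjusted p = 0.0774).

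In WT, the mean of Nefl was 9.77 CPM at E14.5 and 22.7 CPM at E16.5, with every E16.5 library above every E14.5 library, but the log2 fold change of 1.22 did not pass (SE 0.438, edgeR adjusted p = 0.108). Nefm was at 1.04 (SE 0.372, edgeR adjusted p = 0.108) and Ina at 0.53 (SE 0.216, adjusted p = 0.145), both also without overlap. Of all genes tested, 17% had all E16.5 WT libraries higher. DESeq2 called Nefl (adjusted p = 0.0412), Nefm (adjusted p = 0.0464) and Prph (adjusted p = 0.00133) in WT. It also called far more genes in all than edgeR did in WT, with both counts given in the last section. The share of the genes DESeq2 tested was not taken. Nefh was at 0 to 5 fragments at E14.5 and 5 to 9 at E16.5 in WT, and at 0 to 4 and 5 to 10 in cKO.

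In cKO, 0 of 4 tested members passed between the ages, beside 3.91% of all genes higher and 3.71% lower. At an unadjusted p under 0.05, 33.8% of all genes passed in the edgeR fit, and of the members Nefm and Ina did. Ina was at 0.72 (SE 0.219, edgeR adjusted p = 0.0563), with every E16.5 cKO library above every E14.5 cKO library, as for 18.8% of all genes tested. Nefl and Nefm were both at 1.05 (edgeR adjusted p = 0.152 and 0.103), and their libraries overlapped between the ages. DESeq2 called 2 members, Nefm (adjusted p = 0.0498) and Ina (adjusted p = 0.0166). In cKO too it called far more genes in all than edgeR, as given in the last section, and its share of genes tested was not taken. Prph was at 0.20 in cKO (interval -0.65 to 1.04), where WT had -2.07.

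Members were then set against the summed counts of 20 pan-neuronal markers, a list that holds none of them. That sum was itself lower in cKO, with means of 3683 against 5656 CPM at E14.5 and 5680 against 8245 CPM at E16.5. For each 1000 pan-neuronal counts, Nefm gave 1.87, 2.25 and 1.75 counts in E14.5 WT A, B and C and 1.11, 0.996 and 0.719 in E14.5 cKO. At E16.5 it gave 3.21, 2.70 and 2.40 in WT and 1.498, 0.524 and 1.60 in cKO. The cKO libraries were all lower at both ages, with cKO over WT ratios of 0.476 and 0.392 between geometric means. On this scale 2.18% of all genes tested were all lower at E14.5 and 4.11% at E16.5. The sum itself is lower in cKO, and 60.4% of all genes tested were all higher at E16.5.

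Ina, on the same scale, was at 22.6 to 27.8 counts in E14.5 WT and 16.52 to 18.2 in E14.5 cKO, a ratio of 0.693. At E16.5 it was at 24.0 to 25.3 in WT and 18.25 to 18.9 in cKO, a ratio of 0.756, again with no overlap. Nefl overlapped at E14.5 (ratio 0.542) and was all lower at E16.5 (ratio 0.412). Prph overlapped at E14.5 (ratio 0.708) and was all higher at E16.5 (ratio 3.36), as were most genes on this scale. In each of these cases without overlap the two-sided exact permutation p was 0.1, the smallest that 3 against 3 libraries can give. Against 14 deep-layer and subplate markers the ratios at E16.5 were 0.331 for Nefl, 0.314 for Nefm and 0.606 for Ina, all without overlap, as for 8.19% of all genes tested.

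**Figure D3:**
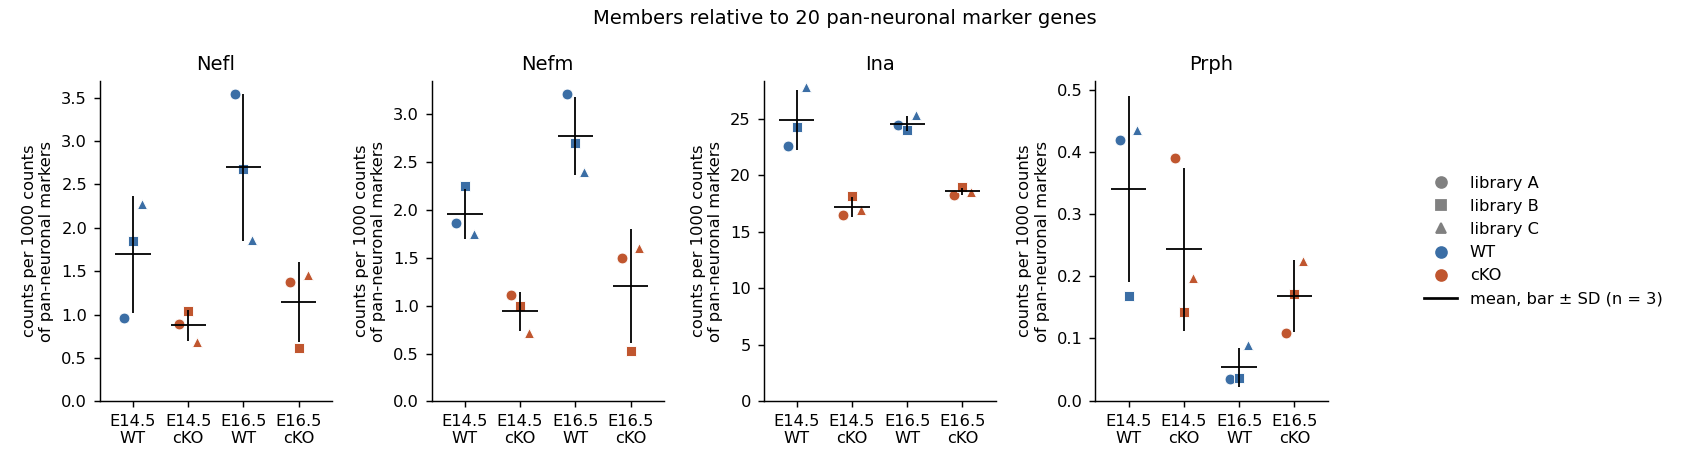
Counts of Nefl, Nefm, Ina and Prph per 1000 counts of 20 pan-neuronal markers in each library, with the mean and SD of 3 libraries. Ina stands at 22.6 or more in every WT library and at 18.9 or less in every cKO library, and Nefm is lower in cKO at both ages.

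The FPKM ratio of Nefl to Nefm was 1.41 ± 0.635 in E14.5 WT and 1.51 ± 0.198 in E14.5 cKO (SD, n = 3 each; exact permutation p = 0.8). At E16.5 it was 1.54 ± 0.270 in WT and 1.61 ± 0.249 in cKO (SD, n = 3 each; exact permutation p = 0.9). Nefm made up 5.78% to 7.33% of the family's FPKM in E16.5 WT and 1.82% to 5.21% in E16.5 cKO, with no overlap (exact permutation p = 0.1). Prph made up 0.138% to 0.373% in E16.5 WT and 0.633% to 1.27% in E16.5 cKO, also with no overlap (exact permutation p = 0.1). The share of Nefh was likewise higher in every E16.5 cKO library (ratio 2.12, exact permutation p = 0.1), although its mean CPM hardly differed. The family sum is mostly Ina, which was lower in cKO, so a member that does not fall gains share. Such shares were not taken for all genes. The share of Ina overlapped between genotypes at both ages. After each library's group mean was taken off, the log2 levels of Nefl and Nefm had a Pearson r of 0.83 over the 12 libraries, Nefl and Ina one of 0.69, and Prph one of -0.60 to -0.52 with the other 3. These values describe 12 libraries in which any shift in neuronal content is shared by all neuronal genes.

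The Nefl and Nefm locus held a further gene that was lower in cKO. A230070E04Rik is annotated on the plus strand (chromosome 14, 68123752 to 68131371) and overlaps Nefm, which is on the minus strand. The counting used strand, so the pair was counted apart. The antisense gene was at 3.85, 3.79 and 3.51 CPM in E14.5 WT and at 1.29, 0.976 and 1.68 CPM in E14.5 cKO. The groups did not overlap (log2 fold change -1.46, SE 0.273, edgeR adjusted p = 0.0452), but leaving out any 1 of the 6 libraries ended the call (edgeR adjusted p from 0.0612 to 0.178). At E16.5 it was at 3.88, 4.07 and 2.36 CPM in WT and 1.38, 1.19 and 1.39 CPM in cKO, again without overlap (log2 fold change -1.38, SE 0.280, edgeR adjusted p = 0.0159). This call was lost without WT A (edgeR adjusted p = 0.0611), WT B (adjusted p = 0.0704) or cKO B (adjusted p = 0.0728). Of the next annotated genes, those tested were not called. Dock5, a guanine nucleotide exchange factor 150311 bases before Nefl, was at 0.00 at E14.5 (edgeR adjusted p = 0.996) and -0.18 at E16.5 (adjusted p = 0.674). Gnrh1, the gonadotropin-releasing hormone gene, was at 0.56 (edgeR adjusted p = 0.314) and 0.65 (adjusted p = 0.299). Adam7 and Adamdec1, on the Nefm side, averaged 0.0232 CPM or less in every group. Ap1b1 overlaps Nefh and Nt5c2 overlaps Ina, both on the opposite strand.

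Genes that work with neurofilaments were described from lists of known roles, most of them at E16.5, since at E14.5 their members rarely passed. At E14.5 none of the linker, kinase, turnover, motor, mRNA-binding or axonal cytoskeleton lists had a member called by edgeR (0 of 62 tested, beside 1.66% of all genes called lower), and their medians ran from -0.43 to 0.00. At an unadjusted p under 0.05, 18 of the 62 passed in the edgeR fit, beside 20.2% of all genes. DESeq2 called 8 lower and 1 higher, beside 6.23% of all genes called lower. The 12-library fit gave 8 lower and 1 higher, beside 6.55% of all genes lower. The replicate block gave 13 lower, beside 7.12% of all genes lower. Of the 20 pan-neuronal markers 1 passed, Eno2, the neuronal enolase (-1.16, edgeR adjusted p = 0.0298), with a list median of -0.66.

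In the list of cytoskeletal linkers, 2 of 4 tested genes were lower at E16.5 and 0 higher, with a list median of -0.30. Epb41l3, a membrane-skeleton protein, was at -0.84 (SE 0.0877, edgeR adjusted p = 0.00192). Macf1, a spectraplakin that crosslinks actin and microtubules, was at -0.37 (SE 0.0826, adjusted p = 0.0223). In the axonal cytoskeleton list, 5 of 15 were lower, 0 were higher and the median was -0.34. They included Sptbn4, a spectrin of the axon initial segment (-1.30, edgeR adjusted p = 0.00763), Ank3, the ankyrin that anchors it (-0.96, adjusted p = 0.00205), and Gap43, a growth cone protein (-0.48, adjusted p = 0.00498). With the replicate number as a block 13 of the 15 were lower and 1 higher, beside 17.9% of all genes lower in that fit. In the 12-library fit, 3 were lower, and the share of all genes called lower in that fit at E16.5 was not taken.

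Kinases and phosphatases that act on neurofilament tails gave 2 lower of 15 tested at E16.5 and 0 higher (median -0.04). These were Cdk5r1, the activator of Cdk5 (-0.61, edgeR adjusted p = 0.00720), and Mapk10, a neuronal Jun kinase (-0.63, adjusted p = 0.0231). With the block there were 5 lower and 1 higher. Of 7 turnover genes 1 was lower, the protease Capn1 (-1.004, edgeR adjusted p = 0.0191, list median -0.14). With the block these were 2 lower and 1 higher. Of 12 transport motors 1 was lower, the kinesin Kif5c (-0.31, edgeR adjusted p = 0.0197, list median -0.10), and with the block 5 were lower and 2 higher. Of 8 proteins that bind neurofilament mRNA 2 were lower, Arhgef28 (-1.18, edgeR adjusted p = 0.00582) and the neuronal Elav protein Elavl3 (-0.53, adjusted p = 0.0206), with a list median of -0.11. Counts without the block stand beside the 9.88% of all genes called lower at E16.5, and counts with the block beside 17.9%. The share of all genes called higher with the block was not taken. Of the genes named from these lists, Epb41l3, Sptbn4, Ank3 and Arhgef28 passed in all 13 alternatives at E16.5. Macf1, Mapk10 and Elavl3 passed in 7 each and Kif5c in 8.

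At E16.5, 13 of 20 pan-neuronal markers were lower and 0 higher, with a median of -0.54. Stmn2, a microtubule-destabilising protein of growing axons, was at -1.30 (SE 0.0886, edgeR adjusted p = 8.19e-04) and Gng3, a G protein subunit, at -1.56 (SE 0.130, adjusted p = 0.00126). The count was 6 without WT A, WT B or cKO B, 4 in the 12-library fit and 2 in that fit with sex. All genes called lower also moved, from 731 to 1805 with 1 library left out, against 1469 of 14865 with all 6. The share of all genes called lower in these other fits was not taken. Among 8 tested intermediate filament genes outside the family, 0 were lower and 1 was higher, beside 5.98% of all genes called higher. This was Nes, nestin, the filament of neural progenitors (0.46, SE 0.130, edgeR adjusted p = 0.0485). Vim, vimentin, was at 0.25 at E14.5 (edgeR adjusted p = 0.188). Nes passed in 6 of 13 alternatives. With the block 3 of these 8 were higher at E16.5, where the share of all genes called higher was not taken. The 5.98% does not apply to that fit, which called more genes in all, as given in the last section. With 1 library left out 0 to 2 of the 8 were higher. Of the layer markers, 3 of 13 deep-layer and subplate genes were lower at E16.5, led by Tle4 (-0.57, edgeR adjusted p = 0.00701), with a list median of -0.16. With 1 library left out 1 to 2 were lower. Tle4 passed in all 13 alternatives, Ldb2 in 5 and Fezf2 in 3, beside 9.88% of all genes called lower. Nefl at -1.80, Nefm at -1.75 and Ina at -0.95 may be read beside these values, although no difference between the members and a list was tested.

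Genes whose log2 CPM followed each member most closely over the 12 libraries were taken by Pearson r, among genes of at least 1 CPM on average. For Nefl these were Sertm1 (r = 0.97), Etnk2, an ethanolamine kinase (r = 0.97), and Gabrb2, a GABA-A receptor subunit (r = 0.96). For Nefm they were Ldlrad4 (r = 0.97), Adam19, a metalloprotease (r = 0.96), and Osbpl6, an oxysterol-binding protein (r = 0.96). For Ina they were Pak6, a serine/threonine kinase, Jph3, a junctophilin, and Gabra3, a GABA-A receptor subunit (r = 0.99 each). Between members, r was 0.96 for Nefl and Nefm, 0.92 for Nefl and Ina and 0.90 for Nefm and Ina. All of these r values include the differences between genotypes and ages. Nefh and Prph averaged under 1 CPM, and no genes were taken for them.

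**Figure D4:**
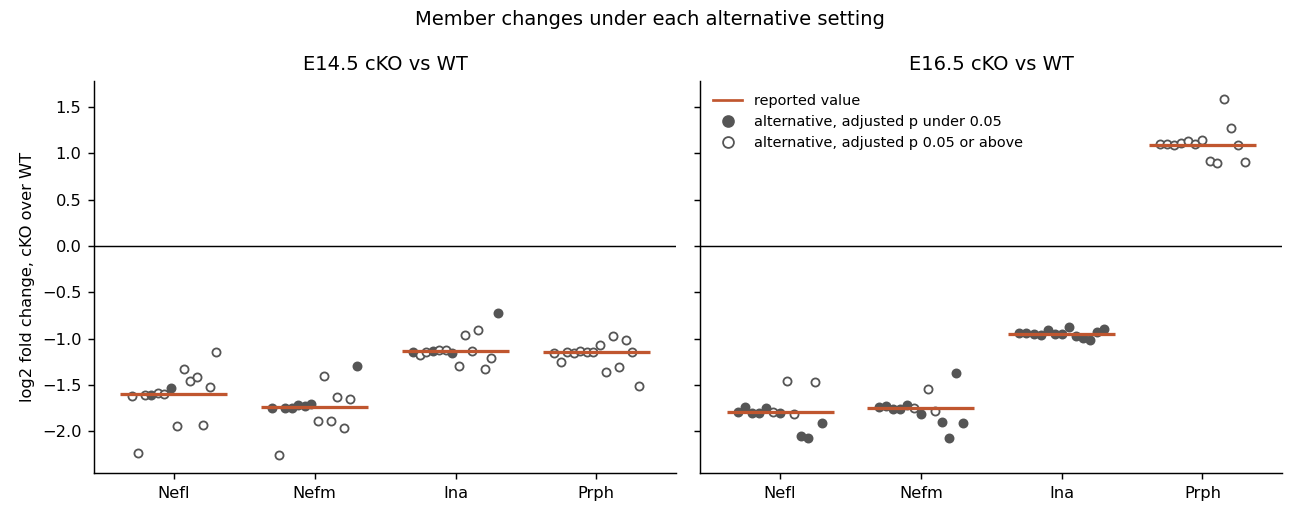
Log2 fold change of cKO over WT for Nefl, Nefm, Ina and Prph under every alternative setting (14 at E14.5 and 13 at E16.5), with filled points where the adjusted p is under 0.05 and a line at the reported value. No alternative changes a direction, Ina passes in all 13 at E16.5, and Prph passes in none at either age.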

How the data were processed

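The authors deposited raw fragment counts for each gene. Per the file headers, they used featureCounts 1.5.2 on RefSeq exons of mm10, with strand setting 2, both ends aligned, chimeric pairs left out and a minimum overlap of 25 bases. Reads were aligned with STAR 2.5.2b, per the submitters' processing notes. A second table by the authors, 1 for each age, holds log2 ratios of WT to knockout and their p-values (raw and adjusted). DESeq2 1.14.1 is the tool that the submitters' processing notes name for it. The 12 normalised library columns of those tables were not used. No pair of libraries was a copy (chi-square per degree of freedom 9.51 to 51.5).

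Counts were tested with edgeR 4.0.16 (R 4.3.3, limma 3.58.1): TMM scaling, filterByExpr, robust quasi-likelihood fit and F test, Benjamini-Hochberg adjustment over all genes tested, threshold 0.05, two-sided. Each age was fitted on its 6 libraries. The interaction and the age comparisons used 1 fit of 12. SE is the log2 fold change over the root of F. The scripts were tested on simulated data. DESeq2 1.42.0, other scalings, no filter, sex (read from Xist), the replicate block and leaving out libraries were the alternatives.

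Pairing was checked from the correlation of deviations from group means between same-numbered libraries. At E16.5 the values were 0.28, 0.21 and 0.11, taken as a pairing, and at E14.5 0.27, 0.30 and -0.002, not so taken. Between WT and cKO libraries of different numbers they ran from -0.267 to 0.107 at E16.5 and from -0.297 to 0.0905 at E14.5. The highest of these at E16.5 was close to the lowest same-numbered value, so the pairing is uncertain at both ages. Deviations within a group sum to 0, so the values of different numbers are not independent of the same-numbered ones.

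The members and gene lists were chosen with earlier results of these data known. Named genes were all members, up to 4 called genes of a list by p (or up to 2 of the highest mean), and the 3 genes most like each member of at least 1 CPM. Log CPM used a prior count of 2. For counts of 0 the floor was 3 counts. Intervals are at 95%.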

Additional observations from a re-analysis of the deposited data

Results flagged for a closer look

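Prph is given here because its cKO libraries were all below WT at E14.5 and all above WT at E16.5. The cKO effect at E16.5 minus that at E14.5 was 2.26 on the log2 scale (SE 0.555). The test of this difference gave an unadjusted p of 0.00158 and an edgeR adjusted p of 1.0 over 15338 genes, so it did not pass. Over 18 alternatives the difference ran from 2.04 to 2.74, and its edgeR or DESeq2 adjusted p from 0.498 to 1.0. Prph counts were 5 to 48 fragments per library. The WT libraries carried the change with age (-2.07), whereas cKO was at 0.20.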

How the results depend on the processing

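At E14.5 the members called were 1, and 2 in the 12-library fit, 0 with sex, 3 by the DESeq2 test, 3 with the replicate block and 2 without WT B and cKO A. All genes called were 297, and in the same order 1336, 128, 1187, 1279 and 621. Leaving out 1 library gave 0 members and 5 to about 3.5e+02 genes, and Ash2l at -1.39 to -1.20. At E16.5 the members called were 3, and 1 without the low-count filter. All genes were 2358, and 1569 with sex and 4790 with the replicate block. Leaving out 1 library gave 1 to 3 members and 987 to 2855 genes. The block changed no member's call at E16.5. At E14.5 it added Nefl (edgeR adjusted p = 0.00907) and Ina (adjusted p = 0.00231). At both ages the samples share only a number, and the pairing is uncertain. For the age difference the block gave 1 gene against 0. WT between ages had 1 member and 330 genes, 0 and 10 with sex and 3 and 1967 by DESeq2. Leaving out 1 library gave 0 to 2 members and 1 to 2216 genes. For cKO between ages these were 0 and 1168, 5 genes with sex, 2 and 3126 by DESeq2, 1 member with library totals and 536 genes without the filter. Leaving out 1 library gave 0 to 1 members and 37 to 3679 genes. The ages share no numbers, so no block could be fitted for either age comparison. Values near 0 changed sign. The age difference of Nefl was 0.50 with sex. That of Nefm was -0.0273 with DESeq2 size factors, -0.0292 by the DESeq2 test, -0.0391 without the filter and -0.12 with the block. With 1 library left out it ran from -0.47 to 0.17 for Nefl, -0.35 to 0.36 for Nefm and -0.0541 to 0.36 for Ina, and the cKO age change of Prph from -0.000195 to 0.36. The cause was not tested. No alternative reversed a member's cKO effect within an age. Depth limits Nefh (0 to 10 fragments) and Prph (5 to 48).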
